A study of Homo sapiens with 6 samples.

Results

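The genes described here are 10 members of the BCL2 family, the proteins that decide whether the outer mitochondrial membrane is permeabilized. They were taken by symbol, which found 10 of 10 among the 38100 genes of the deposited tables. The pore formers were BAX and BAK1, the pro-survival members were BCL2, BCL2L1 and MCL1, and the BH3-only members were BCL2L11, BBC3, PMAIP1, BID and BAD. RNA was sequenced from HK2 cells, labelled wild type, a human line derived from the epithelium of the proximal kidney tubule and immortalized with papillomavirus oncogenes. In one group the cells had received a control adenovirus with an empty vector (AdCtrl, 3 samples) and in the other an adenovirus for SIRT4 (AdSIRT4, 3 samples), and all 6 samples were stimulated with TGF-β1. The cell-line tag carries a different number in each sample, whereas every title names HK2. There was no group without TGF-β1 or without virus, so neither response was measured here.

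BAX and BAK1 lie inactive until they are triggered, and then assemble into pores in the outer membrane through which cytochrome c and other contents leave the mitochondria. BCL2, BCL2L1 (BCL-XL) and MCL1 bind them and the BH3-only proteins and hold them in check. BH3-only proteins relay stress signals: BCL2L11 (BIM), BBC3 (PUMA) and BID can activate the pore formers, while PMAIP1 (NOXA) binds MCL1 above all and BAD binds BCL2 and BCL2L1. Much of this control acts on the proteins, through cleavage, phosphorylation and degradation, which RNA does not show. The study asked whether SIRT4, an enzyme of the mitochondrial matrix, leaves mitochondria through the BAX and BAK pore. From cell fractions it reported that lack of BAX or BAK, or an inhibitor of their oligomers, nearly abolished this release under TGF-β1. The comparison here addresses whether the RNA of the family differed when SIRT4 was in excess.

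The libraries held 53677241, 42102861 and 50190728 counts in AdCtrl replicates 1, 2 and 3 and 41537353, 85684748 and 80040053 in the AdSIRT4 replicates. A gene with no count could thus have had up to 0.0350 to 0.0722 CPM (counts per library size, scaled by TMM), taking 3 counts as the limit that a count of 0 allows. Counts of the 10 genes ranged from 658 to 42083 per library, where counting error alone gives a coefficient of variation of 3.90% and 0.487%. SIRT4 itself was at 0.573, 1.11 and 1.11 CPM in AdCtrl replicates 1, 2 and 3 and at 51.2, 92.7 and 84.0 CPM in the AdSIRT4 replicates, a log2 fold change of 6.36 ± 0.357 (SE, edgeR adjusted p = 0.00801), which goes with the labels. Reads of the viral and of the cells' own SIRT4 were not separated. Of 12 proximal tubule markers, 9 were under 1 CPM in every library. LRP2, AQP1, SLC22A6, SLC22A8 and HNF4A were at or near 0, while GGT1 was at 210.1 to 247 CPM and the epithelial keratin gene KRT8 at 750.4 to 1094 CPM. The line thus carried epithelial RNA but little or no RNA of several defining markers of the tubule. Of 12 markers of other kidney cells, 11 were under 1 CPM in every library, with summed levels of 2.45 to 3.11 CPM in AdCtrl and 2.41 to 2.52 CPM in AdSIRT4.

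AdSIRT4 replicate 1 stood apart from the other libraries. Its deviation from the mean of the other AdSIRT4 libraries followed gene length over 14947 genes (Spearman's rho = -0.667). The median deviation on the log2 scale was 0.71 in the shortest decile of genes (up to 1.34 kb). It was -0.63 in the longest decile (from 8.28 kb). Replicates 2 and 3, for which the mean of the other libraries includes replicate 1, had rho of 0.574 and 0.621. The corresponding rho of the AdCtrl libraries lay between -0.191 and 0.217. The 10 genes run from 1.05 kb (BAX) to 7.96 kb (BCL2) in the transcript length that counts and FPKM imply, so each is given below with all 6 libraries, without this library, and after each library's length trend was removed.

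Promoter sequences are shown for BAK1, PMAIP1 and BCL2L1, the genes that passed the test with sample quality weights (below). Each is the RefSeq sequence (GRCh38.p14) upstream of the outermost annotated base of the gene, so no annotated base of that gene is included. Other genes in the windows were not looked for. The windows are 233 bases at chr6:33580294-33580526 on the minus strand for BAK1, 202 bases at chr18:59899746-59899947 on the plus strand for PMAIP1 and 224 bases at chr20:31723990-31724213 on the minus strand for BCL2L1. Capitals mark matches to the motifs searched, on either strand, a match on the other strand appearing as its reverse complement. The TATA box core was searched as TATAAA. The CCAAT box was searched by the letters of its name. The GC box was searched as GGGCGG, and a SMAD-type motif as CAGACA. The AP-1 motif TGANTCA was searched as well. So was the CRE motif TGACGTCA, and neither had a match in these windows, where no match overlapped another. Motifs and genes were chosen with the values known.
BAK1: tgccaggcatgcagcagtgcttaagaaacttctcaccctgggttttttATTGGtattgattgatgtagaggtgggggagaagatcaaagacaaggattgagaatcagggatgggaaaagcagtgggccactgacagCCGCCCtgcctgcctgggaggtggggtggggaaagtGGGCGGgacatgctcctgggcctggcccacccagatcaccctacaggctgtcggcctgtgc
PMAIP1: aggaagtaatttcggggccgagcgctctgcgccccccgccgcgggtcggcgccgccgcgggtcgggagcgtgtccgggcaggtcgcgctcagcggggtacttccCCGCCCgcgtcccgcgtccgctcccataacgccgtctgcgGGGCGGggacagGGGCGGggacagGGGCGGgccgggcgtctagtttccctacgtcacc
BCL2L1: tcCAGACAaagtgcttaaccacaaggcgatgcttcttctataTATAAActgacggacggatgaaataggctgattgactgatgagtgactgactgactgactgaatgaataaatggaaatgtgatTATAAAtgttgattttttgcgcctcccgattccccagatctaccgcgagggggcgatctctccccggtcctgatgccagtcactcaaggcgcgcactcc

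The PMAIP1 window held 4 GC boxes and was 76.2% G and C. The BAK1 window held 2 GC boxes and 1 CCAAT box at 57.1% G and C. The BCL2L1 window had no GC box, 2 TATA box cores and 1 SMAD-type motif at 47.8% G and C. Another BCL2L1 promoter window, at chr20:31722819-31723118 and not printed, had no match to any motif searched. Among 35116 promoter windows of 250 bases, 42.6% held a GC box, 32.01% a CCAAT box, 10.7% a TATA box core, 13.6% the SMAD-type motif, 6.57% the AP-1 motif and 1.65% the CRE motif. The printed windows are shorter than those. A match describes the letters and not a bound site.

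With all 6 libraries, 0 of the 10 genes passed an adjusted p of 0.05 in edgeR, where 2 of 17720 genes did (0.0113%), and 0 of 10 had an unadjusted p under 0.05, where 7.93% of all genes did. DESeq2 on the same genes gave 0 adjusted calls among the 10, against 1.2% of all genes, and 2 unadjusted calls, against 9.24%. Higher values were fitted in AdSIRT4 for 6 of the 10 genes and lower values for 4, with a median log2 fold change of 0.067 against 0.021 over all genes. The CPM of the groups did not overlap for 3 of 10, BCL2L1 and BID (higher) and BAK1 (lower), against 19.4% of all genes. Leaving out AdSIRT4 replicate 1, 2 of 10 passed, BAK1 and BAD, both lower in AdSIRT4, where 6.71% of 18287 genes passed, and the median of the 10 was 0.018. By the unadjusted p it was 5 of 10, against 24.3% of all genes. With voom and sample quality weights, in which that library weighed 0.0795 against 0.984 to 2.92 for the others, 3 of 10 passed (BAK1, BCL2L1 and PMAIP1), where 9.51% of 17720 genes passed, and 5 of 10 by the unadjusted p, against 27.3%. With the length trend removed, 0 of 10 passed, where 0.0937% of genes did, and 3 of 10 had an unadjusted p under 0.05 (BAK1, PMAIP1 and BID), against 15.7% of all genes with a length. The study's reporting checklist defines in vitro n as technical replicates, without naming the sequencing. No label says that these samples came from separate cultures. For technical replicates, the p-values measure only the spread between these samples.

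**Figure D1:**
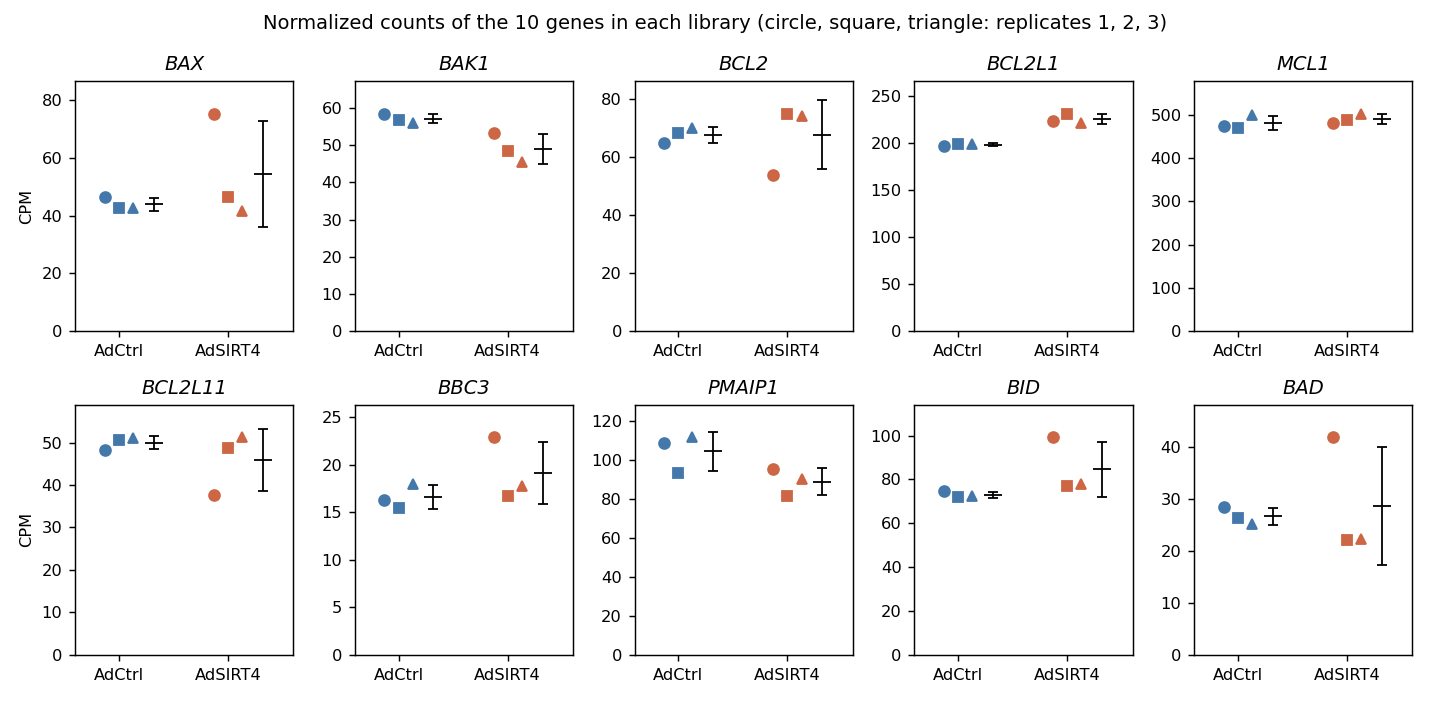
CPM (y axis, from 0) of each of the 10 genes in the AdCtrl (blue) and AdSIRT4 (orange) libraries. Points are libraries and black bars the mean and SD of 3. BAK1 is lower and BCL2L1 higher in all 3 AdSIRT4 libraries, while AdSIRT4 replicate 1 lies apart for BAX, BCL2, BCL2L11, BBC3, BID and BAD.

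BAK1, a pore former that resides in the outer membrane, was at 58.4, 56.7 and 56.0 CPM in AdCtrl replicates 1, 2 and 3 and at 53.4, 48.3 and 45.4 CPM in the AdSIRT4 replicates. All 3 AdSIRT4 libraries lay below all 3 AdCtrl libraries. The means were 57.1 ± 1.23 and 49.0 ± 4.04 CPM (SD, n = 3 each). The log2 fold change was -0.22 ± 0.0953 (SE; 95% interval -0.44 to 0.0051; edgeR adjusted p = 0.633). Without AdSIRT4 replicate 1, BAK1 fell by 0.29 on the log2 scale (edgeR adjusted p = 0.0142), and with the length trend removed the fold change was -0.27 (edgeR adjusted p = 0.123). The sign was negative in 20 of 20 fits, with adjusted p-values from 0.0142 to 0.970. The two-sided exact permutation test gave p = 0.1, the smallest that 3 against 3 samples allow. BAK1 has 91 exonic bases in common with GGNBP1 on the opposite strand, and processed pseudogenes elsewhere in the genome that could have taken or added reads.

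BAX, the pore former that is mostly cytosolic until it is activated, was at 46.6, 42.8 and 42.5 CPM in AdCtrl and at 75.3, 46.3 and 41.6 CPM in AdSIRT4. The first AdSIRT4 value stood far above the rest, while of the other AdSIRT4 values 1 lay within and 1 just below the AdCtrl range. The log2 fold change was 0.31 ± 0.221 (SE; 95% interval -0.22 to 0.83; edgeR adjusted p = 0.744). It was -0.0042 without that library (95% interval -0.15 to 0.15; edgeR adjusted p = 0.979) and 0.13 with the length trend removed (edgeR adjusted p = 0.375), within a range of 0.375 to 0.979 over all fits. BAX is the shortest of the 10 genes. The BAX to BAK1 ratio of CPM per kb was 1.87, 1.77 and 1.78 in AdCtrl and 3.32, 2.25 and 2.16 in AdSIRT4. The ratio was higher in all AdSIRT4 libraries, also in replicates 2 and 3, where BAX was close to its control level and BAK1 was lower. The pair was chosen with the values known, and the ratio carries no test.

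BCL2L1, which encodes the pro-survival protein BCL-XL, was at 196, 199 and 198 CPM in AdCtrl and at 223, 231 and 221 CPM in AdSIRT4. The groups did not overlap, and the replicates of each group lay close together, including AdSIRT4 replicate 1. The means were 198 ± 1.51 and 225 ± 5.33 CPM (SD, n = 3 each), and the log2 fold change was 0.19 ± 0.0875 (SE; 95% interval -0.021 to 0.39; edgeR adjusted p = 0.673). Leaving that library out, the fold change was again 0.19 and missed the threshold narrowly (edgeR adjusted p = 0.0503). With the length trend removed it was 0.16 (edgeR adjusted p = 0.35). It passed with voom and sample quality weights, at 0.21 (limma adjusted p = 0.0309). The sign was positive in 20 of 20 fits, with adjusted p-values from 0.0309 to 0.970, and the exact permutation test gave p = 0.1. The antisense gene ABALON has 1424 exonic bases in common with BCL2L1 and was at 4.16 to 16.1 CPM. Whether the counting used strand is not stated, so reads of the overlap cannot be assigned to either gene. The antisense gene BCL2L1-AS1, named after its values were seen, was at 1.53, 1.79 and 1.71 CPM in AdCtrl and 1.44, 6.41 and 3.06 CPM in AdSIRT4. Its log2 fold change was 1.13 with all libraries (edgeR adjusted p = 0.633) and 1.497 without AdSIRT4 replicate 1 (edgeR adjusted p = 0.0194), within a range of 0.0194 to 0.970 over all fits.

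MCL1, a short-lived pro-survival protein, was at 473, 469 and 498 CPM in AdCtrl and at 480.4, 488 and 502 CPM in AdSIRT4. The groups overlapped, and the log2 fold change was 0.030 ± 0.0995 (SE; 95% interval -0.20 to 0.26; edgeR adjusted p = 0.922). It was 0.040 without AdSIRT4 replicate 1 (edgeR adjusted p = 0.684) and 0.061 with the length trend removed (edgeR adjusted p = 0.630), within a range of 0.630 to 0.991 over all fits. BCL2, the founding pro-survival member, was at 64.8, 68.5 and 70.2 CPM in AdCtrl and at 54.0, 75.1 and 74.2 CPM in AdSIRT4. The first AdSIRT4 library was below and the other AdSIRT4 libraries above every AdCtrl library. The fold change was accordingly -0.00083 with all libraries (95% interval -0.34 to 0.33; edgeR adjusted p = 0.998) and 0.13 without AdSIRT4 replicate 1 (edgeR unadjusted p = 0.0252, adjusted p = 0.143), and 0.099 with the length trend removed (edgeR adjusted p = 0.461), within a range of 0.143 to 0.9995 over all fits. The ratio of BCL2L1 to BAK1, in CPM per kb, was 2.84, 2.97 and 2.99 in AdCtrl and 3.54, 4.04 and 4.11 in AdSIRT4, with no overlap. It carries no test, since the pair was chosen with the values known.

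PMAIP1 (NOXA) was at 109, 93.1 and 112 CPM in AdCtrl and at 95.2, 81.4 and 89.9 CPM in AdSIRT4. The groups overlapped through AdCtrl replicate 2, which was below AdSIRT4 replicate 1. Within each replicate number the AdSIRT4 library was lower, but whether equal numbers were paired is not known. With replicate number as a block the edgeR adjusted p was 0.694, and the exact permutation test gave p = 0.2. The means were 104 ± 9.91 and 88.8 ± 6.95 CPM (SD, n = 3 each), and the log2 fold change was -0.23 ± 0.112 (SE; 95% interval -0.50 to 0.031; edgeR adjusted p = 0.678). It was -0.29 without AdSIRT4 replicate 1 (edgeR adjusted p = 0.0515) and -0.28 with the length trend removed (edgeR unadjusted p = 0.0170, adjusted p = 0.225). With voom and sample quality weights PMAIP1 fell by 0.31 (limma adjusted p = 0.0279). The adjusted p-values ranged from 0.0279 to 0.970, with a negative sign in 20 of 20 fits.

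BID, which is cut by caspase 8 and so joins the death receptor pathway to mitochondria, was at 74.6, 72.2 and 72.4 CPM in AdCtrl and at 99.2, 77.0 and 77.9 CPM in AdSIRT4. All AdSIRT4 libraries were above all AdCtrl libraries, replicate 1 by far. The log2 fold change was 0.21 ± 0.121 (SE; 95% interval -0.073 to 0.50; edgeR adjusted p = 0.705) and 0.079 without AdSIRT4 replicate 1 (edgeR adjusted p = 0.328). With the length trend removed it was 0.16 (edgeR adjusted p = 0.292, the lowest of all fits, with 0.970 the highest). BBC3 (PUMA), a p53 target, was at 16.3, 15.5 and 18.0 CPM in AdCtrl and at 22.9, 16.8 and 17.8 CPM in AdSIRT4. The groups overlapped, AdSIRT4 replicate 1 was highest, and the log2 fold change was 0.20 ± 0.144 (SE; edgeR adjusted p = 0.743). It shrank to 0.049 without that library (edgeR adjusted p = 0.763) and to 0.12 with the length trend removed (edgeR adjusted p = 0.534), within a range of 0.481 to 0.970 over all fits.

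BCL2L11 (BIM) was at 48.3, 50.7 and 51.0 CPM in AdCtrl and at 37.7, 48.8 and 51.2 CPM in AdSIRT4. Only AdSIRT4 replicate 1 was away from the others. The log2 fold change was -0.12 ± 0.131 (SE; edgeR adjusted p = 0.793), and -0.0040 without it (95% interval -0.12 to 0.12). With the length trend removed it was -0.070 (edgeR adjusted p = 0.656), within a range of 0.556 to 0.974 over all fits. The long noncoding RNA gene MIR4435-2HG has 727 exonic bases in common with BCL2L11 on the opposite strand and was at 37.1 to 46.8 CPM. BAD, which phosphorylation keeps away from mitochondria, was at 28.4, 26.3 and 25.2 CPM in AdCtrl and at 41.9, 22.1 and 22.2 CPM in AdSIRT4. The first AdSIRT4 library was above and the other AdSIRT4 libraries below every AdCtrl library. The fold change was 0.10 ± 0.256 (SE; edgeR adjusted p = 0.897) with all libraries. Without AdSIRT4 replicate 1, BAD fell by 0.27 (edgeR adjusted p = 0.0470), and with the length trend removed the fold change was -0.074 (edgeR adjusted p = 0.715), within a range of 0.0470 to 0.980 over all fits. Its 404 exonic bases in common with GPR137, on the opposite strand and at 16.1 to 20.03 CPM, also leave its reads uncertain.

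**Figure D2:**
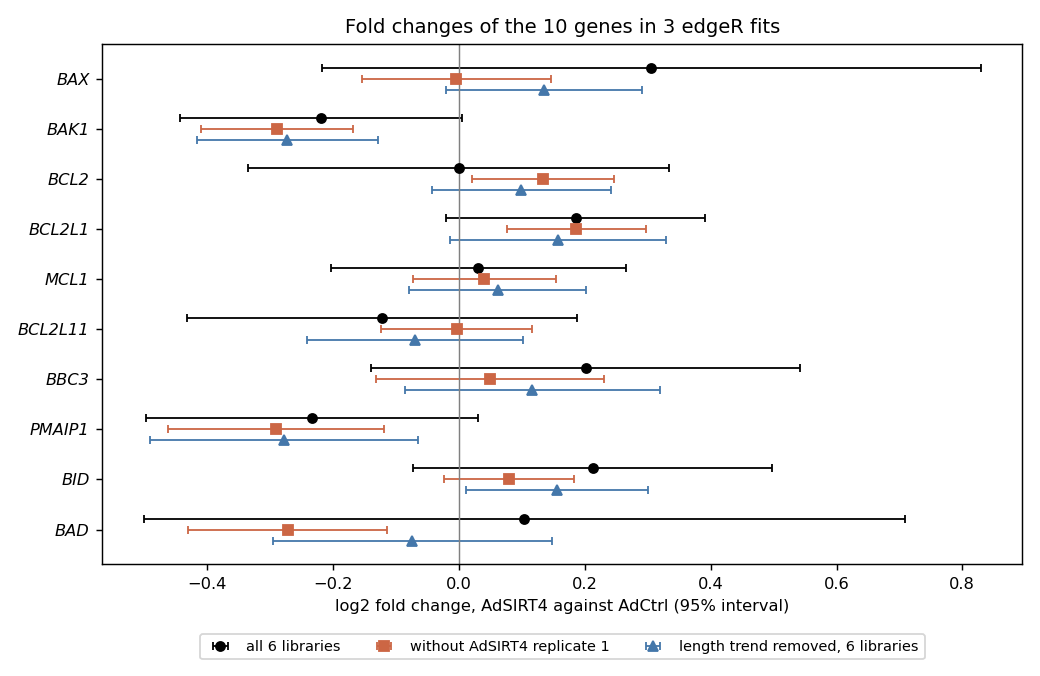
Log2 fold change of AdSIRT4 against AdCtrl (x axis) for the 10 genes (y axis) in 3 edgeR fits, with 95% intervals. The intervals of all 10 genes include 0 with all 6 libraries, and those of BAK1 and PMAIP1 lie below 0 in the other fits.

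The displacement of AdSIRT4 replicate 1 followed length within the family as well. Its log2 CPM minus the mean of AdSIRT4 replicates 2 and 3 ran from 0.92 in BAD (1.13 kb) and 0.78 in BAX (1.05 kb) to -0.41 in BCL2L11 (5.54 kb) and -0.47 in BCL2 (7.96 kb). Across the 10 genes, which share these libraries, Pearson's r with log2 length was -0.972 and Spearman's rho was -0.976, given as a description. The trend fitted to all genes predicted 0.67 for BAX and -0.45 for BCL2. BCL2L1, at 2.90 kb, was displaced by -0.017 where the trend gave 0.17. The part of RNA quality or library preparation in this was not tested.

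**Figure D3:**
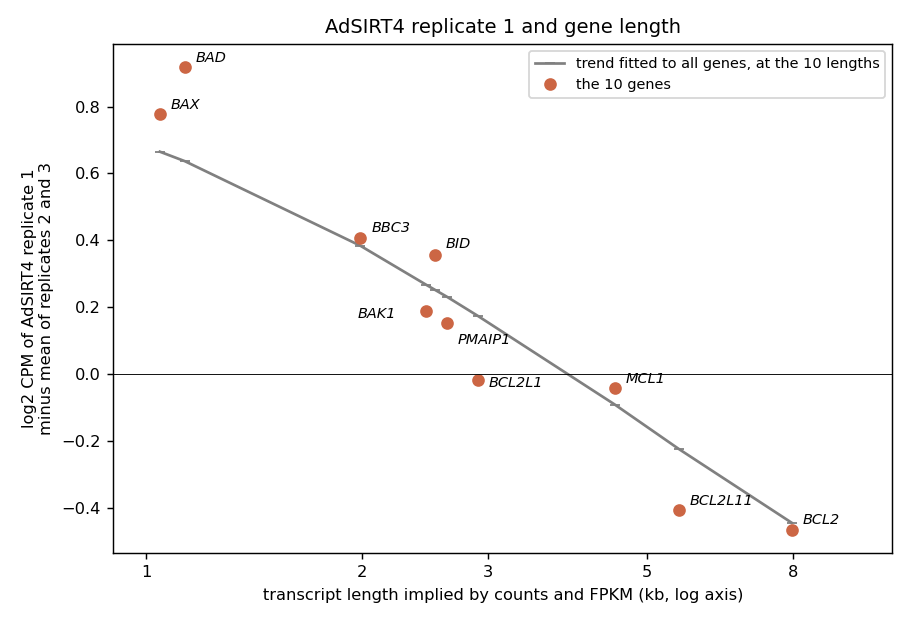
Log2 CPM of AdSIRT4 replicate 1 minus the mean of AdSIRT4 replicates 2 and 3 (y axis) against implied transcript length (x axis, kb, log axis) for the 10 genes, with the trend over all genes in grey. The points descend from 0.92 for BAD to -0.47 for BCL2 along the trend.

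Levels between genes were compared per length, as FPKM (fragments per kilobase, scaled to depth). MCL1 led at 107 ± 7.02 in AdCtrl and 107 ± 7.501 FPKM in AdSIRT4, followed by BCL2L1 at 68.8 ± 2.20 and 76.4 ± 4.48 (SD, n = 3 each), and the ranges of these genes did not overlap each other in either group. In AdCtrl, BAX (41.8) and PMAIP1 (40.5) overlapped, BID followed at 29.1, and BAD (23.5) and BAK1 (23.4) overlapped. BBC3 (8.26), BCL2L11 (9.05) and BCL2 (8.62) overlapped at the lower end. In AdSIRT4, BAX (51.1) did not overlap PMAIP1 (33.8), while PMAIP1, BID (33.0) and BAD (24.6) overlapped their neighbours and BAK1 stood at 19.6 FPKM. Among the 3 pro-survival genes listed here, BCL2 was thus the least abundant RNA per length. The BAK1 level was below that of BAX in both groups. The 3 pro-survival genes together took 50.1, 52.2 and 51.6% of the summed FPKM of the 10 genes in AdCtrl (51.3% ± 1.04) and 45.5, 54.9 and 55.0% in AdSIRT4 (51.8% ± 5.44, SD, n = 3 each). AdSIRT4 replicate 1 was below and the other AdSIRT4 libraries above every AdCtrl library, and without it the AdSIRT4 mean was 54.95%.

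**Figure D4:**
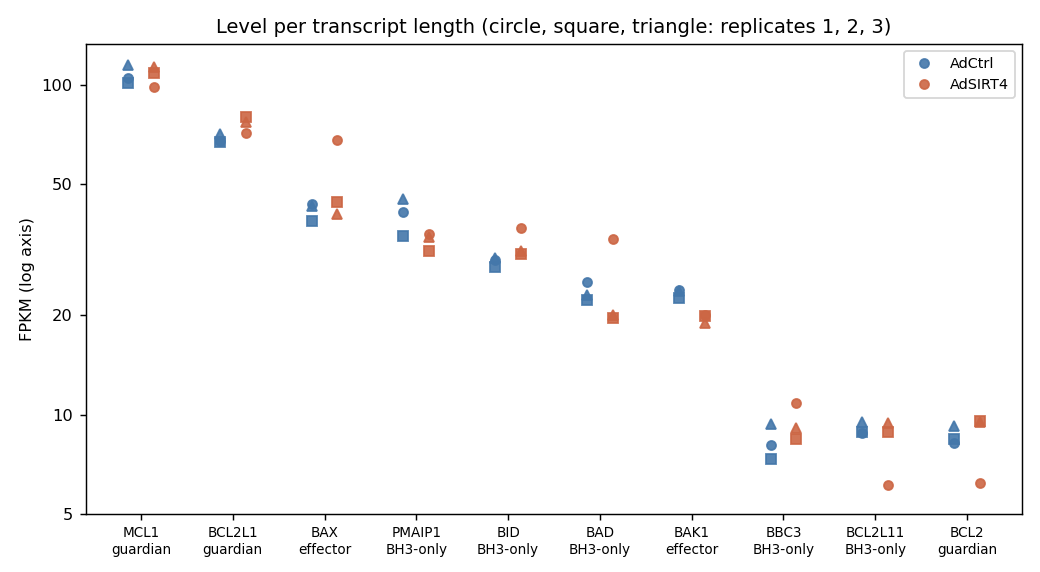
FPKM (y axis, log axis) of the 10 genes, ordered by their mean over all libraries, in AdCtrl (blue) and AdSIRT4 (orange), each point a library. MCL1 is highest near 107 FPKM, and BBC3, BCL2L11 and BCL2 lie near 8 to 9 FPKM.

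Other genes of the pathway were read from 4 lists. Among 14 other BCL2 family genes, 11 were tested, and BCL2A1, BCL2L10 and BCL2L14 were under 0.162 CPM or at it in every library. Of the 11, 0 passed the adjusted threshold with all libraries in edgeR, against 0.0113% of all genes, and 1 in DESeq2, against 1.2%. In edgeR, 4 had an unadjusted p under 0.05, all higher, against 7.93% of all genes. The groups did not overlap for 5, against 19.4% of all genes. Without AdSIRT4 replicate 1, 3 passed, all higher, against 6.71% of all genes: BNIP3L, BNIP3 and BMF. BNIP3L, a mitophagy receptor of the outer membrane, was at 95.005, 99.6 and 93.7 CPM in AdCtrl and 144, 134 and 129 CPM in AdSIRT4, without overlap, with a log2 fold change of 0.49 ± 0.0908 (SE; edgeR adjusted p = 0.404) with all libraries and 0.45 (edgeR adjusted p = 0.00155) without AdSIRT4 replicate 1, within a range of 3.93e-05 to 0.970 over all fits.

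BNIP3, the related mitophagy receptor, was at 139, 132 and 118 CPM in AdCtrl and 282, 193 and 163 CPM in AdSIRT4. All AdSIRT4 libraries were higher. The log2 fold change was 0.72 (edgeR adjusted p = 0.523) and 0.46 without AdSIRT4 replicate 1 (edgeR adjusted p = 0.0179). BMF, a BH3-only gene linked to loss of cell attachment, was at 19.2, 21.1 and 23.1 CPM in AdCtrl and 17.8, 26.5 and 29.8 CPM in AdSIRT4, with a fold change of 0.23 (edgeR adjusted p = 0.766) and, without AdSIRT4 replicate 1, of 0.41 (edgeR adjusted p = 0.0204). BOK, which can form pores without activation by BH3-only proteins, was at 49.5, 47.9 and 45.4 CPM in AdCtrl and 60.8, 53.3 and 54.9 CPM in AdSIRT4, a log2 fold change of 0.24 (edgeR unadjusted p = 0.0358, adjusted p = 0.612). The readthrough gene BCL2L2-PABPN1, named after its values were seen, was at 10.02, 12.02 and 9.59 CPM in AdCtrl and 15.2, 16.5 and 13.4 CPM in AdSIRT4 (log2 fold change 0.51, edgeR adjusted p = 0.494), and its reads can be shared with BCL2L2 and PABPN1.

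Of 12 genes of the VDAC channels and the permeability transition, 0 passed with all libraries by an adjusted or an unadjusted p in edgeR. Over all genes, 7.93% had an unadjusted p under 0.05. DESeq2 gave 0 adjusted calls. The groups did not overlap for 3, against 19.4% of all genes. Of the 12, 11 were higher, and the median log2 fold change was 0.17. Leaving AdSIRT4 replicate 1 out, that median was -0.048. The gene HK2, which encodes hexokinase 2 and shares its name with the cell line, was the 1 gene that then passed, against 6.71% of all genes. It was at 9.003, 9.29 and 10.8 CPM in AdCtrl and 9.21, 13.4 and 15.1 CPM in AdSIRT4. The fold change was 0.37 (edgeR adjusted p = 0.688) with all libraries and 0.55 (edgeR adjusted p = 0.0121) without AdSIRT4 replicate 1. PPIF, the cyclophilin that sensitizes the transition pore, did not overlap between groups, with a fold change of 0.32 (edgeR adjusted p = 0.628) and, without AdSIRT4 replicate 1, of 0.16 (edgeR adjusted p = 0.0867). HK1 did not overlap either, at -0.19 (edgeR adjusted p = 0.691) and -0.13 (edgeR adjusted p = 0.153) in these fits.

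Of 15 apoptosome and caspase genes, 0 passed with all libraries in edgeR and DESeq2. In edgeR, 1 had an unadjusted p under 0.05, against 7.93% of all genes. It was BIRC3, an inhibitor of apoptosis, at 193, 193 and 225 CPM in AdCtrl and 140.4, 162 and 180.4 CPM in AdSIRT4 (log2 fold change -0.34, edgeR adjusted p = 0.612). Without AdSIRT4 replicate 1, 3 of 15 passed, against 6.71% of all genes. APAF1, the scaffold of the apoptosome, was at 71.2, 77.7 and 72.6 CPM in AdCtrl and 74.8, 87.3 and 93.0 CPM in AdSIRT4, with replicate 1 inside the AdCtrl range. Its fold change was 0.20 with all libraries (edgeR adjusted p = 0.701), 0.28 without AdSIRT4 replicate 1 (edgeR adjusted p = 0.0160) and 0.32 with the length trend removed (edgeR adjusted p = 0.1499). HTRA2, a mitochondrial protease, was at 40.3, 39.1 and 36.6 CPM in AdCtrl and 46.4, 29.7 and 32.04 CPM in AdSIRT4, with replicate 1 above and the others below every AdCtrl library. Its fold change was -0.10 with all libraries (edgeR adjusted p = 0.858), -0.33 without AdSIRT4 replicate 1 (edgeR adjusted p = 0.0199) and -0.18 with the length trend removed (edgeR adjusted p = 0.394). AIFM1, a flavoprotein of the intermembrane space, had fold changes of -0.16 (edgeR adjusted p = 0.758), -0.29 (edgeR adjusted p = 0.0298) and -0.22 (edgeR adjusted p = 0.239) in the same order. CASP8, the initiator caspase of the death receptor pathway, had groups that did not overlap, with a fold change of 0.17 (edgeR adjusted p = 0.686).

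Of 14 regulators of the family, 0 passed in edgeR with all libraries or without AdSIRT4 replicate 1, and 0 passed in DESeq2. With all libraries, 0 had an unadjusted p under 0.05 in edgeR, against 7.93% of all genes. Without AdSIRT4 replicate 1, 6.71% of all genes passed. DDIT3, a stress-induced factor that can raise BCL2L11, had a fold change of -0.24 (edgeR adjusted p = 0.738), BAG6 of -0.17 (edgeR adjusted p = 0.748; -0.061 without AdSIRT4 replicate 1) and TP73 of -0.27 (edgeR adjusted p = 0.749). HUWE1, a ubiquitin ligase of MCL1 named after its values were seen, was at 193 CPM in AdSIRT4 replicate 1 and at 583 to 669 CPM in the other 5 libraries. It has the longest implied transcript of these lists, 17.0 kb.

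**Figure D5:**
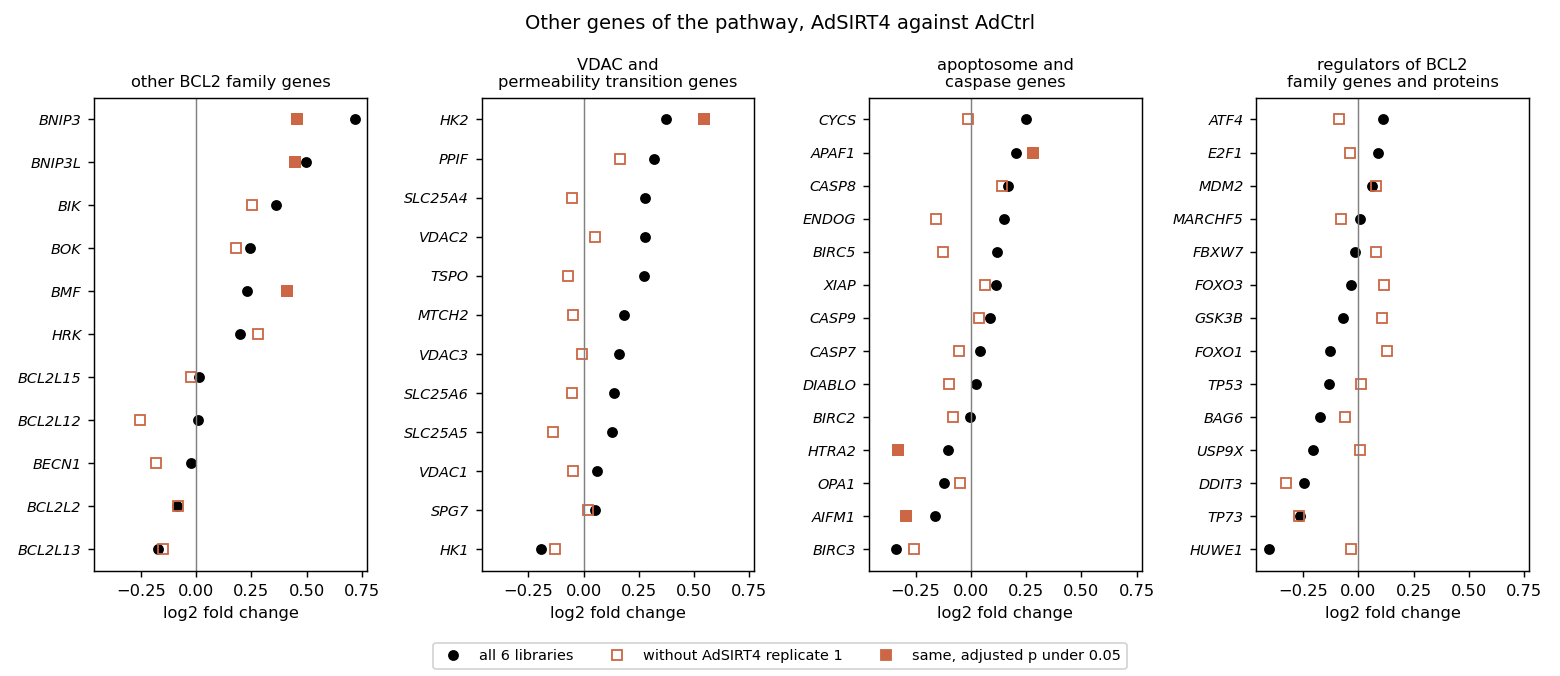
Log2 fold change of AdSIRT4 against AdCtrl (x axis) for tested genes of 4 lists, with all 6 libraries (black circles) and without AdSIRT4 replicate 1 (orange squares, filled where the adjusted p is under 0.05). BNIP3, BNIP3L and BMF are filled at the higher end of the other BCL2 family genes, and HTRA2 and AIFM1 are filled on the lower side of the caspase list.

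The 10 genes lie on 8 chromosomes in GENCODE v29 (GRCh38, the build that the processing notes name as hg38). BAX spans chr19:48954815-48961798 (plus strand) and BAK1 chr6:33572547-33580293 (minus). BCL2 spans chr18:63123346-63320128 (minus), BCL2L1 chr20:31664452-31723989 (minus) and MCL1 chr1:150574551-150579738 (minus). BCL2L11 spans chr2:111119378-111168447 (plus), BBC3 chr19:47220822-47232766 (minus) and PMAIP1 chr18:59899948-59904306 (plus). BID spans chr22:17734138-17774770 (minus) and BAD chr11:64269830-64284704 (minus). BCL2 and PMAIP1 thus lie on the same chromosome, as do BAX and BBC3, but in none of these pairs do the genes overlap. Since the counts are per gene, the splice forms on which the action of BCL2L1, MCL1 and BCL2L11 depends were not separated. In bulk samples, fewer cells with a transcript and less of it per cell cannot be told apart.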

How the data were processed

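Poly-A RNA from 6 samples of HK2 cells was measured, 3 per group, grouped by the sample labels. The authors deposited raw counts per gene, which are whole numbers and not normalized. A second deposited table covers the same 38100 genes. Its unit is not named and was inferred as FPKM, because dividing the deposited counts by these FPKM values and by library size gave a length that held within a ratio of 1.1 across libraries for 12614 of 14947 genes. The submitters' processing notes name fastp 0.21.0, HISAT2 2.1.0, StringTie 2.1.5, DESeq2 1.30.1 and hg38, with no role. The annotation and strand use are not given in the sources used here.

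Counts were tested with edgeR 4.0.16 (TMM, filterByExpr with a minimum count of 10, robust quasi-likelihood test, two-sided) in R 4.3.3, with Benjamini-Hochberg adjustment over all 17720 genes tested, at 0.05. CPM used TMM library sizes. The 95% intervals of fold changes come from the edgeR fit and include the spread between samples, while the floors and coefficients of variation of counts cover counting error only. Single genes were also compared by a two-sided exact permutation test. Alternatives used limma 3.58.1 (voom with sample quality weights, and log2(FPKM + 1) or log2(FPKM + 0.1)) and DESeq2 1.42.0, and each library left out. The length trend was a loess of each library's deviation from the mean of all libraries on log length (span 0.3), entered as an offset. Deviations from group means correlated weakly across groups, at 0.178, 0.159 and 0.176 for equal replicate numbers and at -0.188 to 0.0298 otherwise. Such deviations sum to 0 within a group. These values are thus not independent of each other and do not settle whether samples were paired. Chi-square per gene between replicates was 9.36 to 213, so no library was a copy. The tests were tested on simulated data. Those data had the same dispersion for every gene and library, which the real libraries need not share.

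The 10 members and all lists were chosen with earlier results of these data known. Beyond the members and SIRT4, the text names the 3 genes of each list with the smallest p and every gene of a list with an adjusted p under 0.05 with all libraries, without AdSIRT4 replicate 1 or with the length trend removed, besides those said to be named after their values were seen. A gene that meets this rule is not reported here. Promoters came from RefSeq and positions from GENCODE v29, and both held 10 of 10 members. Tables were made with Python 3.11.15, pandas 2.3.3, numpy 2.4.6 and scipy 1.17.1, and figures with matplotlib 3.10.9.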

Additional observations from a re-analysis of the deposited data

How the results depend on the processing

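Of 190 alternative fold changes of the 10 genes, 169 kept their direction and their side of the threshold, 17 changed sign and 5 passed the adjusted threshold they had missed, of which 1, BAD without AdSIRT4 replicate 1, also changed sign. The count of the 10 genes with an adjusted p under 0.05 was 0 with all libraries and 3 with voom and sample quality weights. With each library left out in turn it ran from 0 to 2, with 2 only without AdSIRT4 replicate 1. The count at an unadjusted p under 0.05 was 0, and became 2 with DESeq2, 1 with at least 10 counts in every sample, 1 in each of the 3 limma fits of log2 FPKM without the block, 3 with the length trend removed, 5 with voom weights and 0 to 5 with each library left out. Over all genes the share at an unadjusted p under 0.05 moved too, from 7.93% to 9.24% with DESeq2. This share was 8.45% with at least 10 counts in every sample and 5.74% to 7.4% in those limma fits. It was 15.7% with the length trend removed, 27.3% with voom weights and 24.3% without AdSIRT4 replicate 1. Without replicate 1 of both groups, chosen after seeing the data, the count was 4 of the 10, against 17.5% of all genes. With the replicate block, which pairs samples of equal number, it was 0, against 7.2% of all genes. There, no gene of the 10 passed an adjusted p of 0.05, and BAK1 had an edgeR adjusted p of 0.694. The unadjusted count was 2 when the block was combined with removal of the length trend, against 15.5% of all genes.

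The median log2 fold change, 0.067, was 0.0075 on the log2(FPKM + 1) scale, whether the block was used or genes under a mean of 1 FPKM were left out, and 0.0071 on log2(FPKM + 0.1). It ran from 0.018 to 0.11 with each library left out. BAX turned to -0.0042 without AdSIRT4 replicate 1 and was at most 0.47 with another library left out. BCL2 turned to 0.099 with the length trend removed, also with the replicate block, to 0.14 with voom weights, to 0.10 without replicate 1 of both groups and lay between -0.076 and 0.13 with each library left out. MCL1 turned to -0.0038 in the 4 limma fits of FPKM. BAD turned to -0.074 with the length trend removed, -0.079 with the replicate block as well, -0.26 with voom weights and -0.22 without replicate 1 of both groups, and lay between -0.27 and 0.27 with each library left out. The cause was not tested.

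Among the other BCL2 family genes, the adjusted count of 0 became 1 with DESeq2, 3 with voom weights, 2 without replicate 1 of both groups and 0 to 3 with each library left out. For the VDAC and permeability transition genes it became 1 with voom weights and 0 to 1 with each library left out, and for the apoptosome and caspase genes 4 and 0 to 3. Over all genes, 2 of 17720 passed with all libraries (0.0113%), 212 with DESeq2 (1.2%) and 1 with the replicate block. With the length trend removed, 14 of 14947 passed (0.0937%). With voom weights 1685 of 17720 passed (9.51%). Without AdSIRT4 replicate 1 it was 1227 of 18287 (6.71%), and 310 of 18552 without replicate 1 of both groups. Low counts did not limit the 10 genes, whose lowest count was 658. Without AdSIRT4 replicate 1, the remaining AdSIRT4 libraries were deeper than every AdCtrl library. The part of depth in that fit was not tested. Groups of 3 limit the exact permutation test to p = 0.1.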
